A study of Homo sapiens with 10 samples.

Results

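The nuclear genes of mitochondrial complexes II, III, IV and V, with that of cytochrome c, were followed in protrusions and cell bodies of MDA-MB-231, a human triple-negative breast cancer cell line. Members were the protein-coding entries of the authors' table whose symbol was SDHA to SDHD, CYC1 or CYCS, or began with UQCR, COX4 to COX8 or ATP5, with the most abundant entry kept where a symbol occurred more than once. This gave 48 genes of 26134 in the table: 4 of complex II, 9 of complex III, CYCS, 12 of complex IV, 15 of complex V, and 7 that carry such a name but are copies, a fusion or proteins of another role. Cells on a micro-hook chip grew protrusions for 6 h and were fixed with 4% paraformaldehyde for 15 min, before laser microdissection parted the protrusions from the cell bodies. There were 5 protrusion libraries and 5 libraries of the corresponding cell bodies, all of the same line and numbered 1 to 5 in each group, made from polyadenylated RNA with a kit for very low input. Nothing states how many cells a library holds or that the cultures were separate, so p-values here measure no more than how the libraries vary, which may be technical variation.

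Values are called scaled TPM, because they look like TPM (reads per transcript length, set to a common total) times 1 factor per library. The factor was 0.737 to 1.103 in protrusions and 0.968 to 1.39 in cell bodies. For every replicate number it was lower in the protrusion than in the cell body. The read depth is unknown. Each value is relative to its own library, so fewer cells captured and less RNA per compartment cannot be told apart. MDA-MB-231 genes were present in every library: the summed level of VIM, CD44, CAV1, AXL and MSN was 943 to 1324 in protrusions and 956 to 1203 in cell bodies. Marker sums of other cell types were 86.4 to 158 in protrusions and 118 to 139.8 in cell bodies for luminal epithelium (nearly all KRT8, with PGR at or near 0), 69.6 to 85.7 in protrusions and 94.3 to 112 in cell bodies for keratinocytes (nearly all KRT10, with KRT14 at or near 0), and 12.6 to 21.7 in protrusions and 20.3 to 26.0 in cell bodies for blood cells (nearly all CD68, with CD3E at or near 0). KRT10, at 78.3 ± 6.01 in protrusions, against 102.7 ± 7.58 in cell bodies (SD, n = 5 each; adjusted p = 0.0466), and CD68, at 15.3 ± 3.61 in protrusions, against 22.6 ± 2.54 in cell bodies (limma adjusted p = 0.037), were called lower in protrusions, and KRT8 was not (adjusted p = 0.264). Their part in the results was not tested. Protrusion 2 lay nearest to the cell bodies on the first principal component, at 24.3 against 58.8 to 72.2 for the other protrusions.

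Complexes II to V sit in the inner mitochondrial membrane. Complex II (succinate dehydrogenase) feeds electrons from the citric acid cycle to ubiquinone, complex III passes them to cytochrome c, complex IV (cytochrome c oxidase) passes them to oxygen, and complex V (ATP synthase) makes ATP from the proton gradient that complexes III and IV help to build. Complex II is encoded wholly in the nucleus, whereas complexes III, IV and V also hold subunits made inside the organelle from mitochondrial DNA. Proteins of the nuclear messages are imported into the organelle.

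The results turn on 2 sets of related genes, whose coding sequences are shown to make clear how far their messages can be told apart. ATP5G1, ATP5G2 and ATP5G3 encode the c subunit, which forms the rotating membrane ring of complex V. COX6B1 and COX6B2 encode isoforms of a subunit on the outer face of complex IV, and COX6B2 is known mainly from testis. The last 225 bases of the 3 ATP5G coding sequences (GENCODE 29 transcripts, GRCh38, on chromosomes 17, 12 and 2, from the plus, minus and minus strand) translate to the same chain of 75 residues. Capitals mark the 52 positions at which the 3 genes are not all alike.
ATP5G1: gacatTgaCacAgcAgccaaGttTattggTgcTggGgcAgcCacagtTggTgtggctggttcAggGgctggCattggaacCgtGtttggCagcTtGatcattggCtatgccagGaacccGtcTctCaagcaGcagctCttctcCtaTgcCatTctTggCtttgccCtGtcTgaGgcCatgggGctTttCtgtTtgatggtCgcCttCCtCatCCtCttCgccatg
ATP5G2: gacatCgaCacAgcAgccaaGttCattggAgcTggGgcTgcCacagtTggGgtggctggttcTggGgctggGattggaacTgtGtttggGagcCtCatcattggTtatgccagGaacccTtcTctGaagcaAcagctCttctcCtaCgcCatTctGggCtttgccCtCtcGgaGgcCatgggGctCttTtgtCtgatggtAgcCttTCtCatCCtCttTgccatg
ATP5G3: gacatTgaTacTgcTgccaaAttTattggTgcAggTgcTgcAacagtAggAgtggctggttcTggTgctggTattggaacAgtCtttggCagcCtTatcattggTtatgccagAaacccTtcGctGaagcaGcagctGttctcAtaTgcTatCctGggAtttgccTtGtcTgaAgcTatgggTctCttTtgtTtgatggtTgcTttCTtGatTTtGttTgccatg
In this stretch ATP5G1 shared 88.9% of its bases with ATP5G2 and 81.3% with ATP5G3, and no pair shared a run of over 17 bases. The COX6B genes, both on chromosome 19 (COX6B2 on the minus strand, COX6B1 on the plus strand), have coding sequences of 264 bases in COX6B2 and 258 in COX6B1, which matched at 63.4% of the aligned bases. Capitals mark the bases that differ from, or have no counterpart in, the other gene.
COX6B2: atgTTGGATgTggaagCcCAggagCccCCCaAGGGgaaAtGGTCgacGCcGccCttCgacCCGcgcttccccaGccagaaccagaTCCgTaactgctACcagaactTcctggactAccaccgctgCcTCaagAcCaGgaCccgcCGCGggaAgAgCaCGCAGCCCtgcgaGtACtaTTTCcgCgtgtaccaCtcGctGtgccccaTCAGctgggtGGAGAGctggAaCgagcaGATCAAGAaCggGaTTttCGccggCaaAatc
COX6B1: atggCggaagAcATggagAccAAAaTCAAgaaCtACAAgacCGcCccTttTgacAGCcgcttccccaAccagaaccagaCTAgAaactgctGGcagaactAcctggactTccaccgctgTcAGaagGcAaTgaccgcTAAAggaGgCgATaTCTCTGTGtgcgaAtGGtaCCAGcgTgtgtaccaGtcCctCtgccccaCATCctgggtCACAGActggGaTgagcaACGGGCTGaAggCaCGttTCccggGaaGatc

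A level of 1 or more scaled TPM in at least 5 libraries was asked for, and 45 of the 48 members passed. Of these, 0 rose in protrusions and 2 fell, COX6B2 and ATP5G3, in the test across all genes (limma, Benjamini-Hochberg adjusted p under 0.05). Over all 10894 tested genes, 4.28% were called higher and 21.5% lower in protrusions, and over the protein-coding ones 4.74% higher and 16.9% lower. At an unadjusted p under 0.05, 2 members were higher (ATP5A1 and ATP5D) and 3 lower (COX6B2, ATP5G1 and ATP5G3), where 9.89% of all tested genes were higher and 25.2% lower. The median log2 change, protrusion minus cell body on log2(value + 1), was 0.0045 over the tested members, -0.028 over all tested genes and 0.022 over the tested protein-coding genes, with 23 members above 0 and 22 below.

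The replicate numbers were taken to pair the libraries. With the replicate number as a block, which removes what a protrusion and its own cell body share, 8 members were higher and 12 lower in protrusions, 17.8% and 26.7% of those tested. Over all tested genes this fit called 13.0% higher and 25.4% lower, and over the protein-coding ones 14.5% higher and 21.0% lower. The members higher with the block were CYC1, UQCRC1, COX5B, ATP5A1, ATP5D, ATP5F1, COX7A2L and ATP5SL. Those lower with it were UQCRH, UQCRQ, COX6B1, COX6B2, COX7C, ATP5E, ATP5G1, ATP5G3, ATP5J, ATP5J2, ATP5L and ATP5EP2. In what follows "blocked" marks the adjusted p of this fit. Counts of pairs are given as deposited. The factor was lower in the protrusion of every pair, which moves deposited changes, pair counts and blocked calls towards lower in protrusions. The block does not remove this difference. How many of all tested genes were higher or lower in every pair was not counted, so the pair counts have no background.

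These counts are relative to the authors' scaling. Bringing every library to one sum shifted the median of all tested genes by 0.28 on the log2 scale, and 13 members were then higher and 1 lower (background 14.2% and 16.8%), or 29 and 1 with the block (background 34.2% and 19.4%). Median-of-ratios scaling shifted that median by 0.12 and gave 2 higher and 1 lower (background 10.5% and 19.1%), or 20 and 5 with the block (background 23.5% and 22.4%). Quantile normalization shifted it by 0.30 and gave 8 higher and 1 lower (background 21.8% and 16.3%), or 22 and 3 with the block (background 36.9% and 18.8%). COX6B2 was called lower under every one of these settings. The 8 members higher with the block had positive log2 changes under all 3 scalings. As each scaling raised the median of all tested genes, this was largely fixed in advance and lends those calls no weight. Of the 12 lower members, UQCRH, UQCRQ, COX6B1, COX7C, ATP5E and ATP5J were above 0 with one sum. UQCRH, UQCRQ and COX7C were above 0 after quantile normalization. UQCRQ was called higher there (log2 change 0.22, limma adjusted p = 0.0271, or 0.00104 with the block), so its call changed direction with the scaling. Other members below 0 as deposited were called higher with one sum and the block. They were UQCR10, UQCR11, CYCS, COX5A, COX6A1, COX8A, ATP5G2 and ATP5I.

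**Figure D1:**
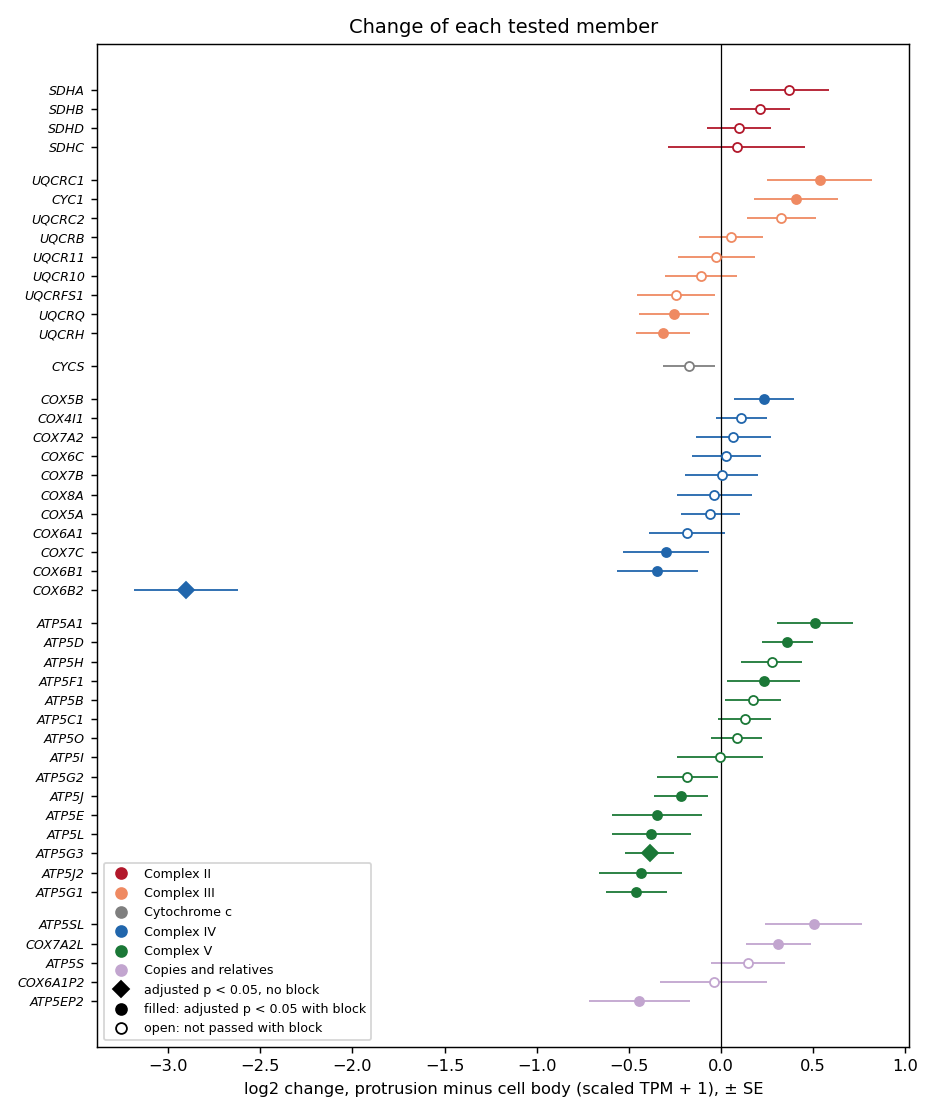
Log2 change, protrusion minus cell body (x axis, log2 of scaled TPM + 1), of the 45 tested members, grouped by complex, with standard errors of the fit without the block; diamonds passed without the block, filled symbols with it. COX6B2 stands alone at -2.90, while the other members lie between -0.46 and 0.54.

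The 4 subunits of complex II had a median log2 change of 0.16, with all 4 above 0 and 0 past the threshold in either fit (at an unadjusted p under 0.05, 0 without the block and 2 higher with it, where 18.0% of all tested genes were higher and 28.9% lower). SDHA, the flavoprotein that oxidises succinate, was at 14.7, 26.0, 17.2, 27.4 and 26.6 scaled TPM in protrusions 1 to 5, against 13.8, 19.3, 14.9, 14.8 and 20.9 in cell bodies 1 to 5. Its protrusion value was the higher one in all 5 pairs, although the groups overlapped (log2 change 0.37, adjusted p = 0.243, blocked 0.066). SDHB, the iron-sulfur subunit, was likewise higher in 5 of 5 pairs, at 372 ± 33.5 in protrusions, against 326 ± 70.9 in cell bodies (SD, n = 5 each, as for all such values; log2 change 0.21, adjusted p = 0.395, blocked 0.0818). The membrane anchors SDHC and SDHD were higher in 3 of 5 pairs each. SDHC was at 59.4 ± 36.1 in protrusions, against 51.9 ± 19.5 in cell bodies (log2 change 0.087, adjusted p = 0.896, blocked 0.741), and its standard error of 0.37 was the largest of the tested members. SDHD was at 217 ± 23.4 in protrusions, against 206 ± 48.1 in cell bodies (log2 change 0.098, adjusted p = 0.737, blocked 0.515). SDHA had the lowest level of the complex on this per-length scale, and every library of it lay below every library of SDHB. Its copy SDHAP1 stood at 0.955 to 4.17 in protrusions and 2.62 to 5.05 in cell bodies. How reads shared by copies were treated is not given here, so SDHA is uncertain to that extent.

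Complex III had a median log2 change of -0.024 over 9 subunits, 4 above 0 and 5 below. None passed without the block in limma (0 at an unadjusted p under 0.05), and 2 were higher and 2 lower with it, 22.2% each, against 13.0% and 25.4% of all tested genes. UQCRC1, a core subunit, was at 112, 62.0, 172, 154 and 119 scaled TPM in protrusions 1 to 5, against 82.7, 44.7, 116, 98.2 and 79.3 in cell bodies 1 to 5. Each protrusion exceeded its own cell body, but both libraries numbered 2 were the lowest of their group and the groups overlapped. The log2 change was 0.54 ± 0.29 (SE; adjusted p = 0.206, blocked 6.09e-04), and without the block it passed when protrusion 2 was left out (adjusted p = 0.0315) and for no other library (up to 0.442). CYC1, cytochrome c1, was at 573, 389.9, 638, 617 and 567 scaled TPM in protrusions 1 to 5, against 498, 224, 482, 535 and 424 in cell bodies 1 to 5. It too was higher in 5 of 5 pairs and lowest in the libraries numbered 2 (log2 change 0.41, adjusted p = 0.228, blocked 0.00543). UQCRC2, the other core subunit, was higher in 4 of 5 pairs, at 46.7 ± 12.2 in protrusions, against 36.4 ± 5.35 in cell bodies (log2 change 0.33, adjusted p = 0.24, blocked 0.0726).

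UQCRFS1, the Rieske iron-sulfur protein, lay on the other side from CYC1, at 164 ± 28.8 in protrusions, against 198 ± 53.9 in cell bodies (log2 change -0.24, adjusted p = 0.452, blocked 0.0653). Of the 5 small subunits around the core, 2 were lower with the block (25.4% of all tested genes) and 3 passed in neither fit. UQCRH, the hinge protein beside cytochrome c1, was at 1763 ± 236 in protrusions, against 2196 ± 308 in cell bodies (log2 change -0.32, adjusted p = 0.144, blocked 0.0019). UQCRQ, a small subunit near cytochrome b, was at 3521 ± 937 in protrusions, against 4151 ± 800.1 in cell bodies (log2 change -0.25, adjusted p = 0.378, blocked 0.00917). Protrusions were lower in all 5 pairs for both genes as deposited, but UQCRQ was called higher after quantile normalization (limma adjusted p = 0.0271). UQCR10 was lower in 5 of 5 pairs without passing, at 859 ± 215 in protrusions, against 922 ± 206 in cell bodies (log2 change -0.11, adjusted p = 0.738, blocked 0.22). With one sum and the block UQCR10 was called higher (log2 change 0.25, limma adjusted p = 0.00263). UQCR11, a short protein at the edge of the complex, was at 1347 ± 412 in protrusions, against 1355 ± 341 in cell bodies (log2 change -0.024, adjusted p = 0.95, blocked 0.81). UQCRB, which binds ubiquinone beside cytochrome b, was at 352 ± 78.6 in protrusions, against 336 ± 53.1 in cell bodies (log2 change 0.056, adjusted p = 0.855, blocked 0.687). The groups of these 3 genes overlapped. CYCS, the mobile carrier between complexes III and IV, was lower in 5 of 5 pairs without passing, at 411 ± 39.7 in protrusions, against 465 ± 64.1 in cell bodies (log2 change -0.17, adjusted p = 0.428, blocked 0.0791). It too was called higher with one sum and the block (log2 change 0.18, limma adjusted p = 0.0191).

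In complex IV 11 of 12 subunits were tested, with a median log2 change of -0.036. COX6B2 fell, 9.09% of those tested, against 21.5% of all tested genes. The other 10 spanned -0.35 to 0.24, 5 above 0 and 5 below, and did not pass without the block. With the block 1 subunit of complex IV was higher and 3 were lower, COX6B2 included. These were 9.09% and 27.3% of those tested, against 13.0% and 25.4% of all tested genes. COX6B2 was at 0.112, 1.40, 0.0810, 0.132 and 0.103 scaled TPM in protrusions 1 to 5, against 6.58, 11.3, 6.71, 7.11 and 13.6 in cell bodies 1 to 5. All 5 protrusions lay below all 5 cell bodies, as in 18.4% of the tested genes and 1 of the 45 tested members, and protrusion 2 stood apart from the other protrusions. The log2 change was -2.90 ± 0.28 (SE; adjusted p = 1.83e-06), between -3.13 and -2.76 with any 1 library left out. Its size depends on the pseudocount, being -4.83 with a pseudocount of 0.1 in place of 1, and it was -2.35 after quantile normalization. COX6B2 reached 1 scaled TPM in 5 cell bodies and 1 protrusion, so it passed the filter through the group in which it was high. In GENCODE 29, 30.9% of its exon bases are shared with AC020922.1, a gene on the same strand, so its reads are uncertain. MALAT1, an RNA retained in the nucleus, was at 2.22, 25.2, 0.288, 5.06 and 2.30 in protrusions 1 to 5, against 47.5, 113, 143, 62.3 and 60.2 in cell bodies 1 to 5. It too was highest among protrusions in replicate 2, and the part of nuclear RNA in the COX6B2 values was not tested.

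COX6B1, the isoform used in most tissues, was at 1658, 2388, 1279, 1388 and 1419 scaled TPM in protrusions 1 to 5, against 2189.9, 3190.0, 1435, 1916 and 1719 in cell bodies 1 to 5. It was lower in protrusions in all 5 pairs, with overlapping groups (log2 change -0.35 ± 0.22 SE; adjusted p = 0.296, blocked 0.00163), and its change was 0.013 when every library was brought to one sum. On the per-length scale COX6B1 was far above COX6B2 in every library. The difference in change between the isoforms was not tested.

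**Figure D2:**
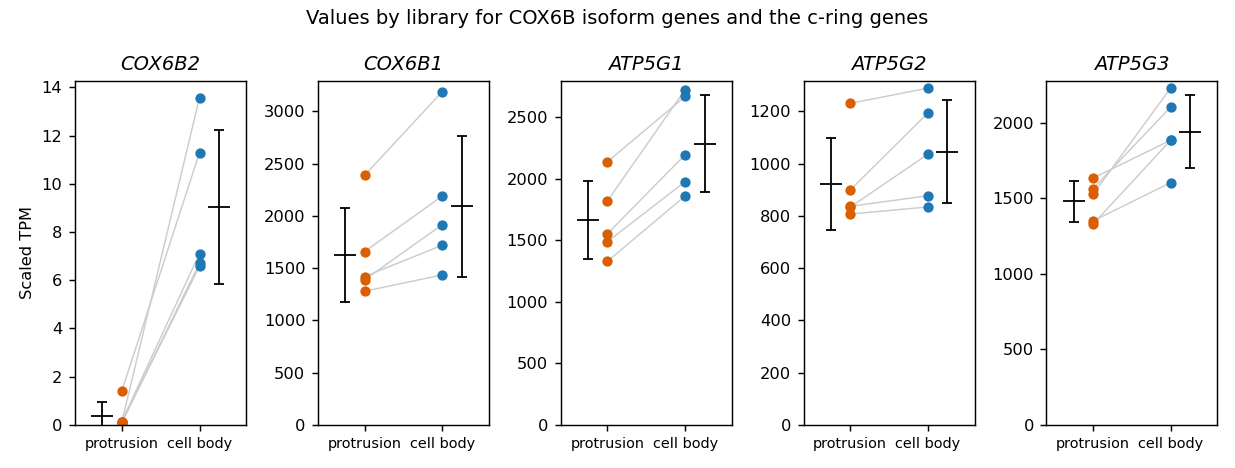
Scaled TPM (y axis, linear, from 0, a scale of its own in each panel) of COX6B2, COX6B1, ATP5G1, ATP5G2 and ATP5G3 in 5 protrusion libraries (left) and 5 cell body libraries (right), with lines between libraries of the same number and the mean ± SD. In each panel all 5 lines run to a higher cell body, and COX6B2 is the one gene here whose groups do not overlap.

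Among the other subunits of complex IV, COX5B, which binds zinc, was higher in 5 of 5 pairs, at 743 ± 150.2 in protrusions, against 626 ± 86.2 in cell bodies (log2 change 0.24, adjusted p = 0.333, blocked 0.0235). COX7C, a short membrane subunit, was lower in 5 of 5 pairs, at 2071 ± 697 in protrusions, against 2526 ± 736 in cell bodies (log2 change -0.30, adjusted p = 0.401, blocked 0.00819). These and COX6B1 were the members of complex IV that passed with the block and not without it. COX6A1, a regulatory subunit and the most abundant member, was at 6568 ± 1710.2 in protrusions, against 7401 ± 1643 in cell bodies (log2 change -0.18, adjusted p = 0.57, blocked 0.078). COX4I1, the largest nuclear subunit, was at 1617 ± 136 in protrusions, against 1505 ± 213 in cell bodies (log2 change 0.11, adjusted p = 0.62, blocked 0.332). COX5A, on the matrix side, was at 1673 ± 294 in protrusions, against 1732 ± 254 in cell bodies (log2 change -0.056, adjusted p = 0.839, blocked 0.599).

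The remaining 4 tested subunits of complex IV are small proteins around the catalytic core and passed in neither fit, with overlapping groups. COX6C was at 1661 ± 409 in protrusions, against 1612 ± 306 in cell bodies (log2 change 0.029, adjusted p = 0.932, blocked 0.794). COX7A2 was at 2549 ± 731 in protrusions, against 2392 ± 484 in cell bodies (log2 change 0.069, adjusted p = 0.845, blocked 0.534). COX7B was at 425 ± 115 in protrusions, against 421 ± 93.4 in cell bodies (log2 change 0.0045, adjusted p = 0.988, blocked 0.972), the smallest difference of the tested members. COX8A was at 2389.9 ± 606 in protrusions, against 2452 ± 623 in cell bodies (log2 change -0.036, adjusted p = 0.923, blocked 0.688), with 34.5% of its exon bases shared with AP000721.1. COX7A1 is the heart and muscle isoform of COX7A2. It was listed at 0 in 4 of 5 libraries of each group and was not tested.

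Complex V had a median log2 change of -0.0059 over 15 subunits, 7 above 0 and 8 below. ATP5G3 fell and 14 did not pass (0% higher and 6.67% lower, against 4.28% and 21.5% of all tested genes). With the block 3 were higher and 6 lower, 20% and 40%, against 13.0% and 25.4% of all tested genes. The c-ring genes, as deposited, were lower in every pair. ATP5G3 was at 1528, 1634, 1329.5, 1564 and 1350.1 scaled TPM in protrusions 1 to 5, against 2232, 1886, 1886, 2106 and 1605 in cell bodies 1 to 5. Cell body 5 alone came within the range of the protrusions. The log2 change was -0.39 ± 0.13 (SE; adjusted p = 0.049, blocked 0.0012). The call was kept without protrusion 2 (0.0356) or cell body 5 (0.0303) and lost without any other single library, namely protrusion 1, 3, 4 or 5 or cell body 1, 2, 3 or 4, with adjusted p of 0.0563 to 0.118. It was also lost under the 3 other scalings (0.176 to 0.87) and with protein-coding genes alone (0.0623).

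ATP5G1 was at 1819, 2137, 1488, 1553 and 1328 scaled TPM in protrusions 1 to 5, against 2723, 2668, 1975, 2195 and 1859 in cell bodies 1 to 5. The groups overlapped and each pair was lower in the protrusion, with a log2 change of -0.46 ± 0.17 (SE; adjusted p = 0.0589, blocked 1.35e-04). It passed without protrusion 2 (adjusted p = 0.0175) or cell body 5 (0.0464), and not with any of the other 8 libraries left out (up to 0.141). The change was -0.10 with one sum, -0.31 with median of ratios and -0.13 after quantile normalization, and did not pass there without the block (adjusted p = 0.454, 0.173 and 0.269). ATP5G2 was lower in 5 of 5 pairs without passing, at 921 ± 176 in protrusions, against 1046 ± 197 in cell bodies (log2 change -0.18, adjusted p = 0.488, blocked 0.0861), and its change was 0.18 when every library was brought to one sum. With one sum and the block ATP5G2 was called higher (limma adjusted p = 0.034).

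Of the small membrane subunits of complex V, 2 of 3 were lower with the block, where 25.4% of all tested genes were lower. ATP5J2 (subunit f) was lower in 5 of 5 pairs, at 2743 ± 776 in protrusions, against 3736 ± 1151 in cell bodies (log2 change -0.43, adjusted p = 0.188, blocked 1.65e-04). Without the block it passed when protrusion 2 was left out (adjusted p = 0.0491) and for no other library (up to 0.398). Its change was -0.076 with one sum, -0.29 with median of ratios and -0.013 after quantile normalization (adjusted p = 0.65, 0.367 and 0.922 without the block). ATP5L (subunit g) was also lower in 5 of 5 pairs, at 1706 ± 510.2 in protrusions, against 2161 ± 409.7 in cell bodies (log2 change -0.38, adjusted p = 0.231, blocked 0.00485). ATP5I (subunit e) was at 1330.3 ± 463 in protrusions, against 1321 ± 389 in cell bodies (log2 change -0.0059, adjusted p = 0.988, blocked 0.958). MYL5, on the opposite strand, shares 61.6% of the exon bases of ATP5I, and as the strand setting of the counting is not known, their reads cannot be told apart.

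The catalytic head and its stalks were mostly above 0. ATP5A1, the alpha subunit, was at 123, 113, 156, 159.7 and 152 scaled TPM in protrusions 1 to 5, against 91.2, 60.8, 133, 120.1 and 99.1 in cell bodies 1 to 5. It was higher in 5 of 5 pairs with overlapping groups (log2 change 0.51 ± 0.20 SE; adjusted p = 0.086, blocked 0.00286). Without the block it passed when protrusion 2 (0.0497) or cell body 3 (0.043) was left out, and for none of the other 8 libraries (adjusted p up to 0.175, log2 change down to 0.34). ATP5D, the delta subunit of the central stalk, was at 161, 178, 181, 163 and 172 scaled TPM in protrusions 1 to 5, against 144, 115, 148, 148 and 115 in cell bodies 1 to 5. It was the 1 member whose protrusions all lay above all cell bodies, as in 3.46% of the tested genes (log2 change 0.36 ± 0.14 SE; adjusted p = 0.0713, blocked 0.0157).

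ATP5B, the catalytic beta subunit, was higher in 5 of 5 pairs without passing, at 627 ± 88.0 in protrusions, against 555 ± 75.5 in cell bodies (log2 change 0.17, adjusted p = 0.458, blocked 0.0622). ATP5C1, the gamma subunit that turns inside the head, was at 380.0 ± 31.6 in protrusions, against 349 ± 50.7 in cell bodies (log2 change 0.13, adjusted p = 0.567, blocked 0.216). ATP5E, the epsilon subunit with the shortest coding sequence of the members, was lower in 5 of 5 pairs, at 300.5 ± 95.9 in protrusions, against 387 ± 142 in cell bodies (log2 change -0.35, adjusted p = 0.346, blocked 0.00626). In the peripheral stalk, ATP5F1 (subunit b) was higher in 5 of 5 pairs, at 415 ± 81.1 in protrusions, against 356 ± 85.6 in cell bodies (log2 change 0.23, adjusted p = 0.447, blocked 0.0301). ATP5J (subunit F6) was lower in 5 of 5 pairs, at 948 ± 137 in protrusions, against 1098 ± 131 in cell bodies (log2 change -0.22, adjusted p = 0.324, blocked 0.0347). ATP5H (subunit d) was at 316 ± 63.4 in protrusions, against 259 ± 36.8 in cell bodies (log2 change 0.28, adjusted p = 0.264, blocked 0.0759). ATP5O (OSCP, which ties the stalk to the head) was at 486 ± 39.6 in protrusions, against 459.9 ± 63.2 in cell bodies (log2 change 0.086, adjusted p = 0.705, blocked 0.494). Genes on the opposite strand also share 20.8% of the exon bases of UQCRQ, 23.2% of ATP5E, 23.1% of ATP5J and 19.1% of ATP5H, and genes on either strand 25.4% of ATP5O, so these levels are uncertain to that extent.

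Set side by side, the medians of the complexes lay closer together than the subunits within complexes III, IV or V. Medians spread less than single values in general, so nothing about the complexes follows from that. Relative to the median of all tested genes, the median change as deposited was 0.18 for complex II, 0.0034 for III, -0.0080 for IV and 0.022 for V. With every library brought to one sum these were 0.26, 0.082, 0.071 and 0.10 for complexes II, III, IV and V. Median-of-ratios scaling gave 0.21, 0.032, 0.021 and 0.050, and quantile normalization -0.11, -0.071, 0.032 and -0.15, in the same order. Complex II was highest except after quantile normalization. It was also not highest without cell body 2, at 0.10 against 0.16 for complex III, and its own median then was 0.044 (0.044 to 0.28 with any 1 library left out). The differences between complexes were described without a test. Grouped by place in the complex after the values were seen, the median log2 change was 0.17 for the head and central stalk of complex V, 0.16 for its peripheral stalk and -0.38 for its 6 membrane subunits, which became -0.024 with one sum. It was 0.37 for the 4 core and redox subunits of complex III and -0.11 for its 5 small subunits, which became 0.25 with one sum.

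**Figure D3:**
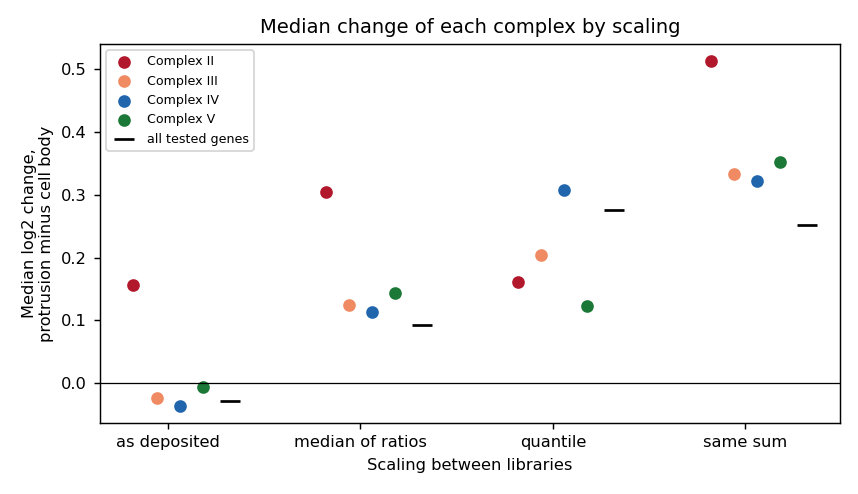
Median log2 change, protrusion minus cell body (y axis), of the tested subunits of complexes II, III, IV and V and of all tested genes, under 4 ways to scale the libraries (x axis). As deposited, complex II lies at 0.16 and the other complexes between -0.036 and -0.0059; the median of all tested genes moves by 0.12 to 0.30 under the other scalings.

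Summed over its subunits, complex II was at 670.4 ± 76.4 scaled TPM in protrusions, against 601 ± 132 in cell bodies, and higher in 4 of 5 pairs. Complex III was at 8734 ± 1693 in protrusions, against 9712 ± 1522 in cell bodies, and lower in 5 of 5 pairs. Complex IV was at 21325 ± 5045 in protrusions, against 22766 ± 4684 in cell bodies, and lower in 4 of 5 pairs. Complex V was at 13630.5 ± 2477 in protrusions, against 16190.4 ± 2799 in cell bodies, and lower in 5 of 5 pairs. As a share of the library sum, which does not depend on the factors, each of the 4 complexes was higher in protrusions in 5 of 5 pairs. Complex II held 0.0773% ± 0.0183 in protrusions, against 0.0539% ± 0.0151 in cell bodies, and complex III 0.976% ± 0.0475 in protrusions, against 0.850% ± 0.0282 in cell bodies. Complex IV held 2.37% ± 0.21 in protrusions, against 1.98% ± 0.103 in cell bodies, and complex V 1.53% ± 0.0746 in protrusions, against 1.41% ± 0.0641 in cell bodies. For III, IV and V this direction is opposite to that of the sums. The 41 subunits took 5.12%, 5.31%, 4.77%, 4.85% and 4.93% of the sum in protrusions 1 to 5, against 4.49%, 4.41%, 4.28%, 4.40% and 4.13% in cell bodies 1 to 5. Every protrusion share lay above every cell body share. A higher share is not particular to these subunits, because equal library sums also put the typical tested gene above 0 (median 0.25 on the log2 scale). The shares alone therefore show no enrichment of the complexes, and whether they rose more than those of other genes was not tested.

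Among the members, change went with the length of the coding sequence. Over 42 tested members with an annotated coding sequence, COX6B2 left out, Spearman's rho between log2 change and coding length was 0.69 and Pearson's r with log2 length 0.67, a description across genes that share libraries. Of 16 members with 500 or more coding bases, a boundary chosen after the values were seen, 15 were above 0 (all but UQCRFS1), with a median of 0.22, and with the block 6 were higher and 0 lower (all tested genes 13.0% and 25.4%). Of 26 with shorter coding sequences, 8 were above 0 and 18 below, with a median of -0.14, and with the block 2 were higher and 10 lower. The median of the short members was above 0 under the other scalings, at 0.22 with one sum, 0.0089 with median of ratios and 0.034 after quantile normalization, against 0.58, 0.37 and 0.32 for the long members. Over all tested protein-coding genes the median was 0.12 for those under 500 coding bases, with 61.7% above 0, and 0.011 for the others, with 50.8% above 0. The rho was 0.69 with one sum or median-of-ratios scaling and 0.48 after quantile normalization. Over 8831 tested protein-coding genes it had the opposite sign, at -0.25. The members' change also went with their level: rho with the mean log2 level was -0.71 over the same 42 members, against 0.34 over the protein-coding genes. Which of length and level the change follows was not tested.

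**Figure D4:**
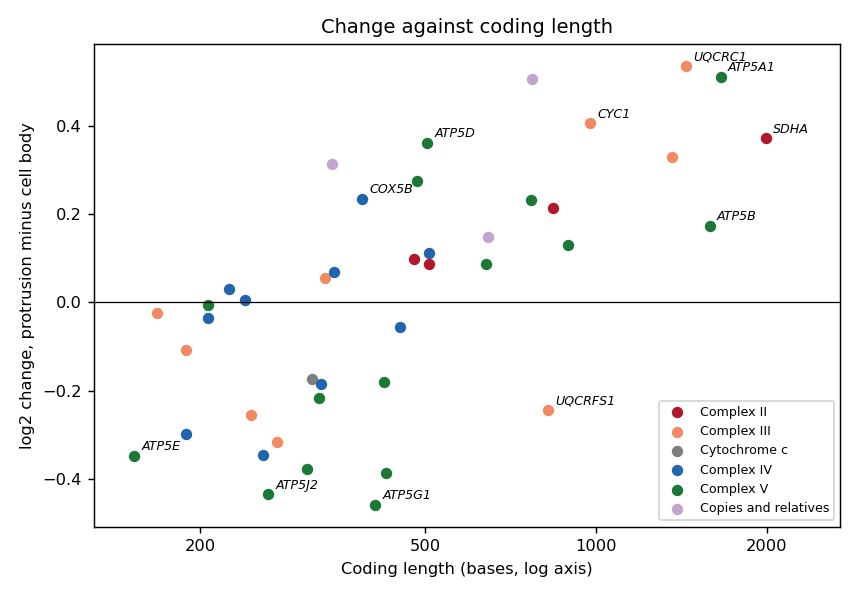
Log2 change, protrusion minus cell body (y axis), against coding length in bases (x axis, log scale) for 42 tested members without COX6B2, coloured by complex. As deposited, members with 500 or more coding bases lie above 0 except UQCRFS1, and 18 of the 26 shorter ones lie below; the median of the short ones is above 0 under the 3 other scalings.

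The members also varied together between libraries of one number. After removing the group means, the deviations of the tested members in protrusion 2 and cell body 2 correlated at 0.93 across genes, and those of the other numbers at 0.34 to 0.79. In 27 members both libraries numbered 2 lay above the mean of the other libraries of their group, in 13 both lay below, and in 5 they differed in sign. ATP5E was higher by 0.84 on the log2 scale in protrusion 2 than in the other protrusions, and by 0.94 in cell body 2 than in the other cell bodies. COX6B1 was like it, at 0.74 in protrusion 2 and 0.83 in cell body 2. At the other end UQCRC1 deviated by -1.13 in protrusion 2 and -1.04 in cell body 2, and CYC1 by -0.62 in protrusion 2 and -1.11 in cell body 2. Most short members were raised and most long ones lowered: of 27 members with under 500 coding bases, 23 were raised in both libraries and 3 (CYCS, COX7A2L and SDHD) lowered, and of 16 longer ones 2 (SDHA and ATP5B) were raised and 10 lowered. The rho between coding length and the deviation of cell body 2 was -0.82 over these 43 members, against 0.31 over 8831 tested protein-coding genes. Without both libraries numbered 2, 1 member was higher (UQCRC1) and 3 lower (COX6B2, ATP5G1 and ATP5G3), over a background of 4.64% and 22.3%. With the block as well, 7 were higher and 13 lower, over 10.6% and 25.7%.

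**Figure D5:**
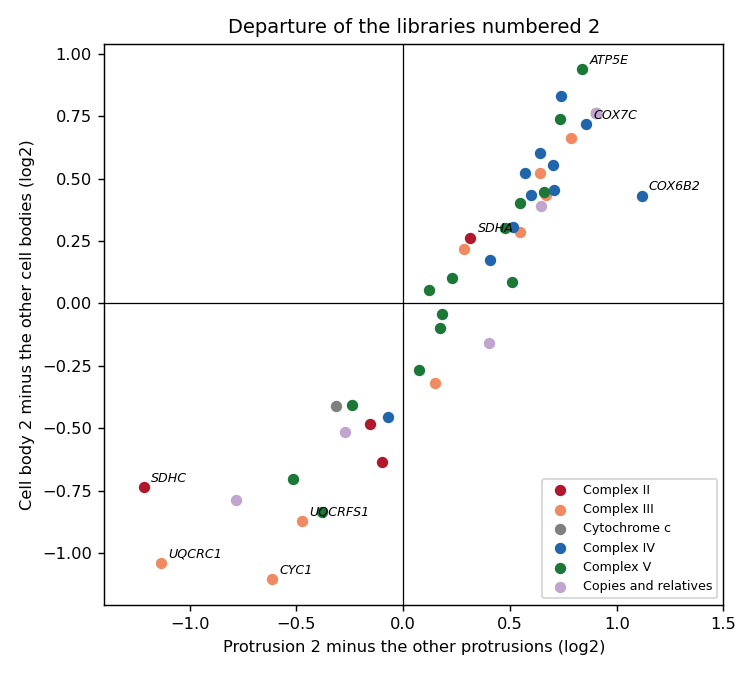
Log2 deviation of protrusion 2 from the other 4 protrusions (x axis) against that of cell body 2 from the other 4 cell bodies (y axis) for the tested members, coloured by complex. UQCRC1 (-1.13 and -1.04) lies at the lower left and ATP5E (0.84 and 0.94) at the upper right, with 27 members raised and 13 lowered in both libraries.

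The 7 relatives were counted apart from the subunits. COX7A2L, a factor that joins complexes III and IV, was higher in 4 of 5 pairs, at 115 ± 13.7 in protrusions, against 93.9 ± 20.5 in cell bodies (log2 change 0.31, adjusted p = 0.222, blocked 0.0481). ATP5SL, which despite its name is known from the assembly of complex I, was higher in 5 of 5 pairs, at 32.1 ± 11.7 in protrusions, against 21.96 ± 6.36 in cell bodies (log2 change 0.51, adjusted p = 0.192, blocked 0.011). ATP5S was at 5.43 ± 0.968 in protrusions, against 4.82 ± 0.952 in cell bodies (log2 change 0.15, adjusted p = 0.649, blocked 0.59). ATP5EP2 and COX6A1P2 are protein-coding in the authors' table and processed pseudogenes in GENCODE 29, so they may hold reads of their parent genes. ATP5EP2 was at 20.5 ± 7.92 in protrusions, against 27.9 ± 9.67 in cell bodies (log2 change -0.44, adjusted p = 0.283, blocked 0.0334), on the same side as ATP5E. COX6A1P2 was at 1.73 ± 0.824 in protrusions, against 1.83 ± 1.014 in cell bodies (log2 change -0.040, adjusted p = 0.941, blocked 0.912). ATP5L2 reached 1 scaled TPM in 0 protrusions and 1 cell body, and the fusion ATP5J2-PTCD1 was listed above 0 in 1 protrusion alone, at 0.011, so neither was tested. A further 30 entries classed as pseudogenes matched the same symbols and together held 15.1 to 21.6 in protrusions and 23.8 to 34.2 in cell bodies.

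Of the assembly factors and accessory proteins of complexes II to V, 43 were in the table and tested. Of these 2 rose, 1 fell and 40 did not pass (4.65% and 2.33%, against 4.28% and 21.5% of all tested genes). The median log2 change was 0.18, with 31 above 0 (72.1%, against 47.9% of all tested genes). SURF1, needed to build complex IV, was at 32.4, 29.1, 34.4, 25.2 and 33.4 scaled TPM in protrusions 1 to 5, against 18.1, 10.3, 21.2, 17.9 and 16.2 in cell bodies 1 to 5. The groups did not overlap (log2 change 0.87 ± 0.20 SE; adjusted p = 0.00369). APOPT1, another factor of complex IV, was at 36.5 ± 6.25 in protrusions, against 17.6 ± 5.23 in cell bodies and rose (log2 change 1.05, adjusted p = 0.00235, blocked 4.39e-04). TTC19, which acts in the upkeep of complex III, was at 4.86 ± 0.773 in protrusions, against 9.47 ± 2.05 in cell bodies and fell (log2 change -0.82, adjusted p = 0.00654, blocked 0.00372). With the block 11 rose and 4 fell, 25.6% and 9.30% of the list, against 13.0% and 25.4% of all tested genes. The other 9 that rose with it, named after their values were seen, were PET100, HIGD2A, COA3, COA1, CMC1, TMEM70, SCO2, OXA1L and ATPAF1, with log2 changes of 0.27 (COA3) to 0.60 (ATPAF1). The other 3 that fell with it, named likewise, are small proteins bound to complex V: USMG5 (log2 change -0.46, adjusted p = 0.24, blocked 2.80e-04), C14orf2 (log2 change -0.35, adjusted p = 0.289, blocked 0.00117) and the inhibitor ATPIF1 (log2 change -0.25, adjusted p = 0.238, blocked 0.031).

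Nuclear subunits of complex I, of which 37 of 39 were tested, had a median log2 change of 0.17 with 26 above 0 (70.3%, against 47.9% of all tested genes). Of these 4 rose and 0 fell (10.8% and 0%, against 4.28% and 21.5% of all tested genes), and 12 rose and 2 fell with the block (32.4% and 5.41%, against 13.0% and 25.4%). Complex I, the assembly list and the mitochondrially encoded subunits are given as deposited only. Their changes under the other scalings, which raised the median of all tested genes by 0.12 to 0.30, were not looked at. The 6 mitochondrially encoded subunits of complexes III, IV and V had a median log2 change of -0.59, with all 6 below 0. Of these 2 fell, both of complex IV (33.3%, against 21.5% of all tested genes). MT-CO3 was at 13160.1 ± 2165 in protrusions, against 22898 ± 3113 in cell bodies (log2 change -0.81, adjusted p = 0.00128, blocked 2.40e-05). MT-CO2 was at 19629.7 ± 4759.9 in protrusions, against 29568 ± 7195 in cell bodies (log2 change -0.60, adjusted p = 0.0485, blocked 9.94e-05). The third core subunit of complex IV did not pass without the block, MT-CO1 being at 5523 ± 1128 in protrusions, against 6503 ± 1086 in cell bodies (log2 change -0.24, adjusted p = 0.342, blocked 0.0315). The complex V genes were MT-ATP6, at 16295 ± 5719.6 in protrusions, against 25302 ± 9482 in cell bodies (log2 change -0.64, adjusted p = 0.108, blocked 1.66e-04), and MT-ATP8, at 6899 ± 1319 in protrusions, against 10790.0 ± 3801 in cell bodies (log2 change -0.59, adjusted p = 0.0927, blocked 4.68e-04). MT-CYB, cytochrome b of complex III, was at 4391 ± 643 in protrusions, against 4905 ± 1123 in cell bodies and passed in neither fit (log2 change -0.14, adjusted p = 0.611, blocked 0.273). In the authors' deposited table, 0 of the 48 members had a false discovery rate or a p-value under 0.05. The smallest false discovery rate was 0.724, for COX6B2, whose change there was 1.80, cell body relative to protrusion. Among members lower with the block here, UQCRQ, COX7C, ATP5J, ATP5L and ATP5EP2 had authors' changes of the opposite direction, at -0.060 to -0.0022. The others called with the block had the same direction in both.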

How the data were processed

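RNA was profiled in 5 protrusion and 5 cell body libraries of MDA-MB-231 cells. The submitters' processing notes name StringTie 1.3, HISAT2, FastQC 0.10.1 and cutadapt 1.10, with no order; the sources used here give no build, annotation or strand setting. No source names the unit of the deposited expression values. All values below 2 (100%) were whole multiples of 1 step per library (tolerance 0.00051; unrelated steps would match 7.34% to 13.8%), as for TPM with 2 decimals times 1 factor, so they are called scaled TPM. TPM keeps no depth, so no counting intervals are given. The log2 fold change, p-value and false discovery rate columns are, per the file headers, from the authors.

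Genes with 1 or more in at least 5 libraries entered a limma fit (version 3.58.1, R 4.3.3) of log2(value + 1) with a trended prior variance and no block; adjustment was by Benjamini-Hochberg over all 10894 genes, with a threshold of 0.05. Every adjusted p is from limma, and the fit was tested on simulated data. Log2 changes understate the change of low genes. Deviations of same-numbered libraries from their group means correlated at 0.236 to 0.577, above 0.1 in all 5 pairs. Those of differently numbered libraries ran from -0.433 to 0.289, so the ranges overlapped. Each protrusion correlated most with the cell body of its own number. As the series also speaks of corresponding cell bodies, the numbers were taken to pair the libraries. With 1 library left out, the filter asked for as many libraries as the smaller group held. Alternatives were the pseudocount, the filter, 3 scalings, the block, protein-coding genes alone, robust fitting, and leaving out libraries. Those combining the block with a scaling, or with leaving out both libraries numbered 2, were chosen after seeing the data. GENCODE 29 (GRCh38), matched by gene identifier, gave exon overlap, coding length and sequence (principal transcript). All members and the 6 mitochondrially encoded subunits are named, and those of the assembly list past the threshold. The members and lists were chosen with earlier results of these data known. Biopython 1.88, matplotlib 3.10.9, pandas 2.3.3, scipy 1.17.1 and numpy 2.4.6 under Python 3.11.15 served the other steps.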

Additional observations from a re-analysis of the deposited data

Results flagged for a closer look

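In 4 of the 90 groups of 5 values looked at (45 tested members in both compartments), 1 library lay apart from the other 4 by a gap of more than 0.71 of the whole range, and each time it was protrusion replicate 2. Chance flags about 1 in 20 groups where these are independent. The members vary together between libraries, so the number flagged cannot be judged against that rate. CYC1 was low in protrusion replicate 2, at 389.877 scaled TPM against 567 to 638 in the other protrusions. CYCS was low there too, at 343.36 against 412 to 439.989. COX6B2 was high in it, at 1.401 against 0.081 to 0.132. ATP5G2 was high as well, at 1230.702 against 807 to 899. Cell body replicate 2 was the lowest cell body for CYC1 and CYCS and the highest for ATP5G2.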

How the results depend on the processing

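COX6B2 kept its direction and its call under all 24 alternatives, with log2 changes of -4.83 (pseudocount 0.1) to -2.35 (quantile). All of them draw on the same libraries, in which COX6B2 passed the filter through the cell bodies, so they are no independent support. Against 0 members higher and 2 lower as reported, 1 was higher with no filter (ATP5D), 13 higher and 1 lower with one sum for every library, 2 and 1 with median-of-ratios scaling, 8 and 1 after quantile normalization, and 1 lower with protein-coding genes alone. The replicate block gave 8 and 12, and together with the scalings 29 and 1 (one sum), 20 and 5 (median of ratios) and 22 and 3 (quantile). Without both libraries numbered 2, 1 was higher and 3 lower, and with the block 7 and 13. Leaving out 1 library gave 0 to 2 higher and 1 to 4 lower, and without protrusion 2 it was 2 higher and 4 lower. For the fits without 1 library, with no filter or with protein-coding genes alone, the share of all genes called was not counted. Their counts therefore cannot be set against a background. The median of all tested genes became 0.25 (one sum), 0.093 (median of ratios) and 0.28 (quantile), that of complex III 0.33 (one sum) and 0.20 (quantile), that of complex IV 0.32 (one sum) and 0.31 (quantile), and that of complex V 0.35 (one sum). With 1 library left out, the medians ran from 0.044 to 0.28 (complex II), -0.15 to 0.11 (III), -0.14 to 0.068 (IV) and -0.19 to 0.11 (V). Log2 changes that turned positive with one sum were UQCR10 0.25, UQCR11 0.33, UQCRFS1 0.11, UQCRH 0.043, UQCRQ 0.10, CYCS 0.18, COX5A 0.30, COX6A1 0.17, COX6B1 0.013, COX7C 0.059, COX8A 0.32, ATP5E 0.010, ATP5G2 0.18, ATP5I 0.35, ATP5J 0.14 and COX6A1P2 0.17. With median-of-ratios scaling they were UQCR10 0.042, UQCR11 0.12, COX5A 0.093, COX8A 0.11, ATP5I 0.14 and COX6A1P2 0.043, and after quantile normalization UQCR10 0.036, UQCR11 0.20, UQCRH 0.031, UQCRQ 0.22, COX5A 0.26, COX6A1 0.35, COX7C 0.021, COX8A 0.31, ATP5G2 0.026, ATP5I 0.22 and COX6A1P2 0.51. Without both libraries numbered 2, those that turned negative were SDHD -0.0098, COX6C -0.0032 and COX7B -0.025. With 1 library left out, these log2 changes crossed 0: SDHC (-0.20 to 0.33), SDHD (-0.029 to 0.19), UQCR11 (-0.18 to 0.11), UQCRB (-0.053 to 0.14), COX5A (-0.14 to 0.036), COX6C (-0.090 to 0.14), COX7A2 (-0.073 to 0.19), COX7B (-0.14 to 0.12), COX8A (-0.16 to 0.085), ATP5I (-0.19 to 0.15) and COX6A1P2 (-0.21 to 0.16). The cause of these reversals was not tested.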
